A study of Mus musculus with 54 samples.

Results

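The comparison described here is that of microglia taken 3 h after the last of 2 intraperitoneal injections of lipopolysaccharide (LPS) with microglia of mice that received phosphate-buffered saline (PBS) both times. Microglia are the resident macrophages of the brain, and LPS is the bacterial cell wall component that starts an innate immune response through the receptor TLR4. The 3 libraries of the LPS-LPS group (LL) and the 3 of the PBS-PBS group (PP) were chosen by their labels, and they are 6 of the 54 samples of the series and 6 of its 24 RNA libraries. The other groups of the same experiment, PBS first and LPS last (PL) and LPS first and PBS last (LP), also with 3 libraries each, were used only to show what a single injection had done. All mice were male C57BL/6J, 7 to 9 weeks old on arrival, acclimatised for at least 2 weeks and housed individually. The injections were 4 weeks apart, each LPS dose was 1 mg/kg from E. coli 0111:B4, and each RNA library came from 1 mouse. Cells were sorted as DAPI-negative, CD11b-high, CD45-intermediate and Ly6C-negative, so that cells that changed these surface markers would have left the gate. Of 55536 genes in the count table, 16096 had enough reads to be tested.

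LPS bound by CD14 and TLR4 signals through MyD88 and TRIF to NF-kB, to mitogen-activated kinases and to interferon regulatory factors, which switch on cytokines, chemokines and interferon-stimulated genes within hours. In the whole animal, injected LPS also raises cytokines and adrenal glucocorticoids in the blood, and both can reach microglia. Macrophages that meet LPS again often give a lower output of inflammatory genes, which is called endotoxin tolerance, while other genes still respond. In microglia the response runs against a homeostatic programme held by factors such as SALL1 and MAF and marked by P2RY12, CX3CR1 and TMEM119.

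Library totals were 4961195 to 15161153 counts in PP and 4530395 to 8600744 in LL. The summed level of 9 defining microglia markers was 39616 to 45566 CPM (reads scaled to a common library size) in PP and 34920 to 38045 CPM in LL. Among markers of other cells, 11 neutrophil genes summed to 934 to 1186 CPM in PP and 645 to 710 CPM in LL, nearly all of it Csf3r, with 6 of the 11 tested and 1 at 0 in every PP and LL library. The 9 monocyte genes summed to 22.8 to 29.6 CPM in PP and 46.5 to 54.7 CPM in LL, and Ly6c2 was too low to test. The 9 endothelial genes summed to 47.1 to 56.9 CPM in PP and 107 to 109 CPM in LL, of which Kdr made up most in LL, and Cldn5 was too low to test. The 9 lymphocyte genes summed to 488 to 524 CPM in PP and 102 to 150 CPM in LL, of which only Ighm was tested and 2 were at 0. Astrocyte genes summed to 210 to 261 CPM in PP and 341 to 427 CPM in LL, and the sums of border-associated macrophage, neuron, oligodendrocyte and erythrocyte genes overlapped between the groups. The part of these levels in the results was not tested, and in bulk RNA fewer cells of a type and less RNA per cell cannot be told apart.

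In LL microglia, 839 genes were higher and 687 were lower than in PP (adjusted p under 0.01 and a change of more than 1 on the log2 scale, edgeR quasi-likelihood test). These are 5.21% and 4.27% of the genes tested. After a single injection (PL against the same PP libraries), 1544 genes were higher (9.59%) and 1459 lower (9.06%). The higher genes moved further: their median log2 fold change was 1.73, against -1.37 for the lower genes, and 156 lay above 3 while 13 lay below -3. The LL and PP libraries did not overlap for 838 of the genes called higher and 684 of those called lower, against 50.4% of all genes tested. Without the first LL library the lower genes numbered 428. Genes of predicted or unnamed loci made up 20.5% of the higher and 28.2% of the lower genes.

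**Figure D1:**
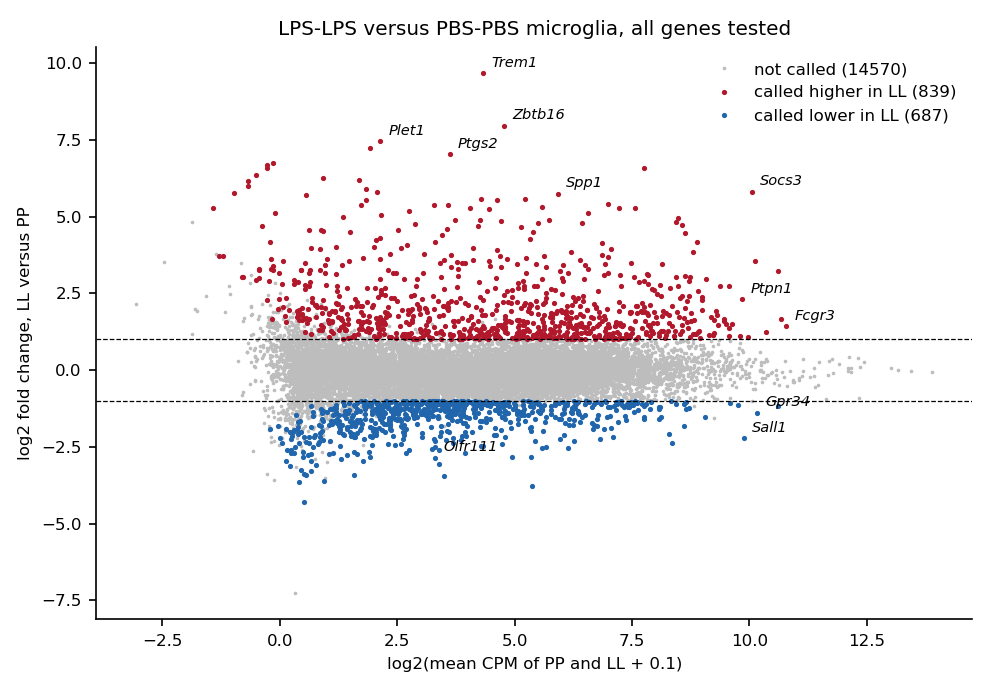
Change of each tested gene between LL and PP against its level: x axis, log2 of the mean CPM of PP and LL plus 0.1, and y axis, log2 fold change of LL over PP, with dashed lines at 1 and -1. The 839 genes called higher (red) reach farther from 0 than the 687 called lower (blue), and the other genes tested are grey.

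The displacement can also be read as a share of all RNA. Genes called higher made up 3.64% to 3.74% of all CPM in the PP libraries, 3.76% to 3.86% in LP, 14.8% to 16.3% in PL and 11.1% to 12.7% in LL. Genes called lower made up 4.00% to 4.75% in PP, 3.90% to 4.00% in LP, 1.00% to 1.36% in PL and 1.43% to 1.80% in LL. The genes were chosen by LL and PP, so these shares describe them and are not a test. On the log2(CPM + 1) scale the root mean square distance between a PP and an LL library had a median of 0.699 (range 0.606 to 0.811), above the distances within PP (0.249 to 0.454) and within LL (0.302 to 0.356). The same distance was 0.913 (0.82 to 1.033) between PP and PL libraries and 0.493 (0.4 to 0.552) between PL and LL libraries. LL libraries thus lay away from the naive state by more than the spread within either group, and each PP to LL distance was shorter than the shortest PP to PL distance.

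The largest rises were in genes that naive microglia hardly transcribe. Trem1, an activating receptor of myeloid cells that amplifies Toll-like receptor signals (chromosome 17, 48232768 to 48246924, plus strand), was at 0, 0 and 0.191 CPM in PP, 77.5, 57.9 and 40.8 CPM in PL and 46.6, 30.5 and 42.5 CPM in LL. The log2 fold change between LL and PP, given throughout ± its standard error, was 9.68 ± 0.61, adjusted p = 5.5e-08. Raw counts rose from 1 over the 3 PP libraries to 779 over LL, a ratio of 1180 with a 95% exact counting interval of 211 to 46700, and the single count in PP sets the width of that interval. Such intervals cover counting error only, since reads without molecular identifiers are not independent molecules. Plet1, which encodes a membrane glycoprotein of epithelial progenitors (chromosome 9, 50494525 to 50505482, plus strand), went from 1 count to 165 (ratio 250, 44.3 to 9940) and was at 10.6, 4.69 and 10.4 CPM in LL. Its exons overlap Plet1os on the opposite strand and the use of strand in counting is not known for these libraries, so reads of the pair cannot be told apart. Lrg1, an acute-phase glycoprotein, went from 1 count to 141 (ratio 214, 37.8 to 8500).

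Zbtb16 and Cd300lf, also low in PP, and Socs3, which was not, have inhibitory roles. Zbtb16, a zinc-finger repressor that glucocorticoids induce (chromosome 9, 48654297 to 48836222, minus strand), was at 0.231, 0.256 and 0 CPM in PP and 61.4, 40.3 and 60.5 CPM in LL (log2 fold change 7.96 ± 0.82, adjusted p = 1.9e-05), with 13.1, 24.01 and 54.5 CPM in PL. Cd300lf, an inhibitory receptor for lipids on myeloid cells (chromosome 11, 115116214 to 115133992, minus strand), was at 3.23, 4.23 and 6.67 CPM in PP and 432, 352 and 496 CPM in LL (log2 fold change 6.57 ± 0.54, adjusted p = 3.8e-06). Socs3, the feedback inhibitor of cytokine receptors of the gp130 family (chromosome 11, 117966079 to 117970047, minus strand), rose from 39.7, 31.4 and 41.5 CPM to 2363, 1947 and 1955 CPM (log2 fold change 5.81 ± 0.32, adjusted p = 1.4e-08), and PL had 3421, 2828 and 3229 CPM. For these 3 genes the difference of LL from PL did not pass the test: on the log2 scale it was 0.85 ± 0.43 for Zbtb16 (adjusted p = 0.256), -0.80 ± 0.39 for Cd300lf (0.24) and -0.60 ± 0.25 for Socs3 (0.167). Socs2 and Cish, of the same inhibitor family, rose by 5.58 ± 0.26 and 5.55 ± 0.30, and both were lower in LL than in PL (-0.97, adjusted p = 0.00171, and -0.94, adjusted p = 0.00752). Exons of Cish overlap 2 predicted genes on the opposite strand.

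Ptgs2, the inducible cyclooxygenase that makes prostaglandins (chromosome 1, 150100031 to 150108227, plus strand), rose in both groups that received LPS last, and less in LL. It was at 0, 0.256 and 0.191 CPM in PP, 20.6, 26.2 and 26.0 CPM in LL and 122, 55.3 and 66.1 CPM in PL. The log2 fold change was 7.04 ± 0.56, adjusted p = 5.2e-07, and that of LL over PL was -1.76, adjusted p = 0.00135. Spp1, the secreted phosphoprotein osteopontin, rose from 2.77, 1.86 and 2.1 CPM to 124, 96.5 and 135 CPM, and Klf4, a zinc-finger factor of macrophage activation, from 1.73, 1.09 and 2.29 CPM to 72.3, 84.6 and 61.2 CPM, with no overlap of the groups. Together with Plet1os, Socs2 and Cish these are the 12 largest named rises at 5 CPM or more.

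By amount of RNA, the rises were led by Socs3 and 5 other genes. Il4ra, the receptor chain for interleukin 4, went from 327, 309 and 255 CPM in PP to 3055, 2485 and 2897 CPM in LL (log2 fold change 3.24 ± 0.16, adjusted p = 2.6e-09). Sbno2, a transcriptional coregulator induced by interleukin 10, went from 174 ± 3.85 CPM in PP (SD, n = 3) to 2289.6, 1812 and 2051 CPM (3.56 ± 0.16). Picalm, a clathrin adaptor of endocytosis, went from 774, 778 and 816 to 2534, 2317 and 2575 CPM (1.65 ± 0.11). Fcgr3, an activating receptor for immunoglobulin G, went from 1021, 1006 and 821 to 2771, 2414 and 2540.4 CPM (1.44 ± 0.13), and Ptpn1, a tyrosine phosphatase that dampens JAK kinases, from 342, 305 and 284 to 1697, 1346 and 1569 CPM (2.31 ± 0.13). None of these 5 genes differed between LL and PL past the test (adjusted p 0.102 to 0.777).

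The 250 bases before the RefSeq start of 6 genes are printed because the results turn on them: 4 that rose from near 0, and Efnb2 and Top2a, which differed from PP in LL and not in PL. They come from RefSeq on GRCm38.p6, read 5' to 3' on the gene's strand, and capitals mark letters that match a motif searched on both strands. The searched motifs were GAAANNGAA (interferon response), TGANTCA (AP-1), TTGCNNAA (C/EBP), TGACGTCA (cyclic AMP response), TTCNNNGAA (STAT), the NF-kB site, the glucocorticoid response element and the CArG box. The windows are Trem1 chr17:48232489-48232738 (plus), Ptgs2 chr1:150099781-150100030 (plus), Cd300lf chr11:115133993-115134242 (minus), Plet1 chr9:50494275-50494524 (plus), Efnb2 chr8:8661243-8661492 (minus) and Top2a chr11:99024190-99024439 (minus).
Trem1: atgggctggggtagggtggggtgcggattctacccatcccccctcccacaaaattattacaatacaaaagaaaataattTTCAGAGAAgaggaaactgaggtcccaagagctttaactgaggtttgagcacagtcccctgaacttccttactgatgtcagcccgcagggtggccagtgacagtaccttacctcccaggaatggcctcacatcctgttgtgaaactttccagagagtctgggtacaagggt
Ptgs2: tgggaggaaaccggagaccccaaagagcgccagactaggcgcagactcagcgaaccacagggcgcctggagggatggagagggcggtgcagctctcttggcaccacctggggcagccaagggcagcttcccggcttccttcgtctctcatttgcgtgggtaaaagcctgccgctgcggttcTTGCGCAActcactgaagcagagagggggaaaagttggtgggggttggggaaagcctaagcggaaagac
Cd300lf: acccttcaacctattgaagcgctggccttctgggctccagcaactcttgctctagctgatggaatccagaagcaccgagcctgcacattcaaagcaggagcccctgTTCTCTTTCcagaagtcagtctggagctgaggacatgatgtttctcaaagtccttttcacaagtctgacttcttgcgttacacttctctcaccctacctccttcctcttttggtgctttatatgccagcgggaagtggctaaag
Plet1: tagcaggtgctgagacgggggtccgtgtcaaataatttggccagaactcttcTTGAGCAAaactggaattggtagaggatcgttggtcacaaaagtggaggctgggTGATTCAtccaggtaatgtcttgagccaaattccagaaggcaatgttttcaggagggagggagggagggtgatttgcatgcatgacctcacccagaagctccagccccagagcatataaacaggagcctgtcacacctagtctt
Efnb2: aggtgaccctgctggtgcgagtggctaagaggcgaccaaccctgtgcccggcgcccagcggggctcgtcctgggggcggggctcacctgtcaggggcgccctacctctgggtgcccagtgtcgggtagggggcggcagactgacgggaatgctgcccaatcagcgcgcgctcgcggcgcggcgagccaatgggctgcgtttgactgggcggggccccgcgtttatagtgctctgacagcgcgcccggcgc
Top2a: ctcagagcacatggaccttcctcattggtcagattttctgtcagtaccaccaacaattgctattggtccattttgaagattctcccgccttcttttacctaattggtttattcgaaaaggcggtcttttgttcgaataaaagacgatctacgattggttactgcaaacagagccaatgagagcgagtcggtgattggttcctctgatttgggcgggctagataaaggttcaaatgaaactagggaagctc
The match in Trem1 is of the STAT motif, in Ptgs2 of the C/EBP motif, in Cd300lf of the interferon motif, and in Plet1 of the C/EBP and AP-1 motifs. The windows of Efnb2 and Top2a hold none of these letters, which says nothing of the factors themselves. Over 250 bases before the start of the genes tested, the STAT motif was in 6.39% of 16062 windows, in 8.10% of those of genes called higher and in 5.25% of those called lower. The NF-kB motif was in 7.65% of all windows, 10.5% of those called higher and 14.7% of the 156 genes with a log2 fold change above 3, and the AP-1 motif in 4.77%, 6.08% and 10.3%. The C/EBP motif was in 8.28% of all windows and 7.99% of those called higher, but in 12.2% of the 156. In the same order, the interferon motif was in 7.19%, 9.54% and 7.69%, and the cyclic AMP motif in 2.06%, 3.46% and 3.85%. The glucocorticoid response element was in 0.118%, 0.477% and 1.92%, and the CArG box in 1.11%, 1.19% and 0.641%. The STAT motif was in 8.97% of the 156. These shares are descriptions without a test.

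**Figure D2:**
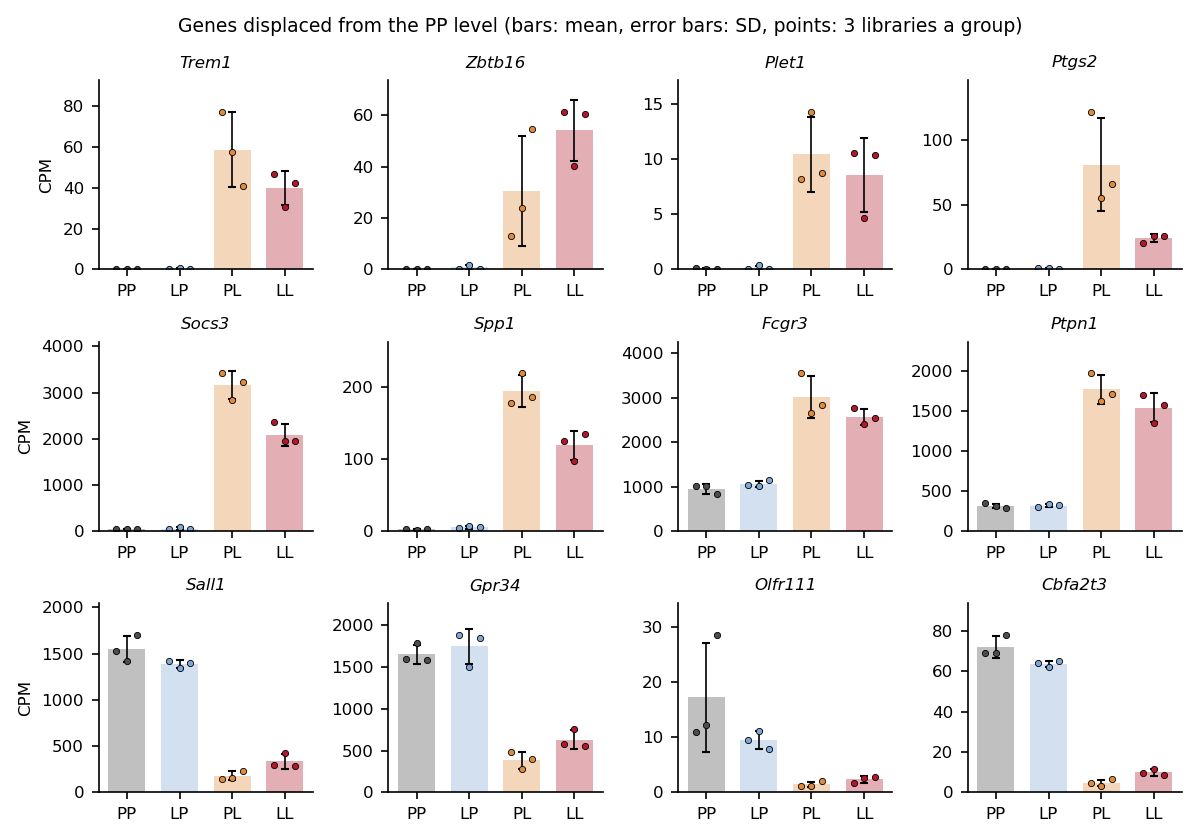
Level in CPM (y axes, linear from 0) of 12 genes in PP, LP, PL and LL: bars are means of 3 libraries, error bars 1 SD and points the libraries. The 8 genes of the upper rows are near their PP level in LP and higher in PL and LL, for example Trem1 at 46.6, 30.5 and 42.5 CPM in LL, and Sall1, Gpr34, Olfr111 and Cbfa2t3 are lower in PL and LL.

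Falls were smaller, and the furthest among named genes at 5 CPM or more were those of Olfr111, Adamts16 and Cbfa2t3. Cbfa2t3, a transcriptional corepressor, fell from 68.9, 68.9 and 78.1 CPM in PP to 9.49, 11.7 and 8.58 CPM in LL (log2 fold change -2.84 ± 0.16, adjusted p = 7.2e-09), and was lower still in PL, at 4.41, 3.37 and 6.44 CPM. Sall1, the factor that holds microglial identity (chromosome 8, 89027235 to 89044162, minus strand), fell from 1529.5, 1423 and 1706 CPM to 301, 424 and 281 CPM (-2.21 ± 0.19, adjusted p = 5.9e-07), while PL had 143, 159.7 and 236 CPM, and LL lay above PL (by 0.90, adjusted p = 0.00807). Sox4, a factor of the SRY-box family, fell from 81.7, 75.0 and 89.2 to 9.98, 19.9 and 12.2 CPM (-2.54 ± 0.20). Engase, an enzyme that cleaves N-glycans, fell by 2.54 ± 0.20 and the protease gene Adamts16 by 2.85 ± 0.17 on the log2 scale. Of the 12 furthest named falls, Zfp385c, Ptchd1, Smim10l2a, Sema6d, Olfr110, Nsl1 and Tbx6 fell by 2.57 to 2.83 on the log2 scale. Exons of Cbfa2t3, Sox4 and Engase each overlap a predicted gene on the opposite strand.

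Olfr111, an olfactory receptor gene expressed in microglia here, was at 10.8, 12.2 and 28.6 CPM in PP and 1.7, 2.64 and 2.71 CPM in LL (log2 fold change -2.85 ± 0.39, adjusted p = 6.6e-05). The third PP library was the highest for this gene. It was also the highest of PP for Ivns1abp (1606, 1711 and 3187 CPM, against 865, 1060.1 and 981 in LL) and for Cd33, a sialic-acid-binding inhibitory receptor (932, 1008 and 1664 against 503, 571 and 544 CPM). Both were still called lower, and no PP library overlapped LL. Gpr34, a lysophospholipid receptor of microglia, fell from 1593, 1789 and 1584 to 582, 758 and 555 CPM (-1.39 ± 0.18), and lay above PL (0.71, adjusted p = 0.0259).

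The named pathways were read from 33 lists of genes with known roles, of which each member was counted at an adjusted p under 0.05. Over all genes tested, 17.1% were higher and 18.5% lower in LL at that threshold. The median log2 fold change of all genes was -0.01 in LL and -0.04 in PL. More genes were called in PL than in LL (9.59% higher and 9.06% lower, against 5.21% and 4.27%). A larger count of list members in PL is therefore not by itself a trait of that list. In the lists of chemokine, interferon, immediate early, ribosome biogenesis and ribosomal protein genes, where edgeR called 0 lower, 0 were lower also at an unadjusted p under 0.05 and in DESeq2 and limma. Of 14 NF-kB subunits and inhibitors, all tested, 9 were higher and 1 lower in LL, with a median of 0.90, and in PL 14 were higher with a median of 2.17. Among members with reads in PP the largest rises were those of Bcl3 and Nfkbia: Bcl3, a nuclear IkB protein, went from 7.62, 5.71 and 3.62 to 303, 199 and 242 CPM (5.41 ± 0.32), and Nfkbia, which encodes the inhibitor IkBa, from 71.9, 64.7 and 65.0 to 472, 388 and 406 CPM (2.65 ± 0.12). Of the subunit genes, Nfkb2 rose by 1.503 ± 0.127 and Rela by 0.96 ± 0.10. Relb was at 36.8, 35.8 and 23.6 CPM in PP and 63.9, 53.8 and 61.9 in LL (0.88 ± 0.14), and Nfkb1 did not pass the test (0.17 ± 0.09, adjusted p = 0.181), nor did Rel (0.11), nor the inhibitors Tnfaip3 (0.01) and Tnip1 (-0.14). The exception in direction was Nfkbie, the inhibitor IkBe, at 44.9, 47.8 and 42.3 CPM in PP, 153, 129.7 and 135 in PL and 29.7, 25.7 and 30.0 in LL. It was higher than PP after 1 injection and lower than PP after both (log2 fold change 1.63 and -0.67 ± 0.10, both past the test), and in LL the fall was short of the limit of 1 for a call.

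Of 20 cytokine genes 14 were tested, of which 9 were higher and 1 lower in LL (median 1.71, against 2.71 in PL). Il1b was at 2.77, 3.46 and 3.05 CPM in PP and 90.3, 77.1 and 95.3 in LL (4.79 ± 0.33), and Tnf at 6.69, 4.68 and 5.72 and 69.4, 52.6 and 60.1 (3.44 ± 0.17), so both main inflammatory cytokines stayed far above the naive level. PL was higher again, with 711, 337 and 350.5 CPM for Il1b and 289.7, 233 and 258 CPM for Tnf. Il1rn, the natural antagonist of the interleukin 1 receptor, rose by 4.76 ± 0.43, close to the rise of Il1b. Il15, which sustains lymphocytes, was the member that fell, from 15.9, 15.6 and 15.8 to 8.4, 11.0 and 8.13 CPM (-0.77 ± 0.18). Il6 was at 9.58, 8.27 and 10.7 CPM in PP and 15.5, 17.2 and 22.8 in LL (0.96 ± 0.18), just under the limit of 1 for a call.

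Of 18 chemokine genes 15 were tested, of which 8 were higher and 0 lower (median 1.16, against 4.50 in PL). Ccl12, a ligand of the monocyte receptor CCR2, was at 27.2, 24.2 and 17.5 CPM in PP and 647, 681 and 672 in LL (4.84 ± 0.23), and Ccl2 at 3.92, 3.91 and 3.62 and 44.9, 34.2 and 42.9 (3.40 ± 0.34). Cxcl10, an interferon-induced ligand of CXCR3, reached 23.1, 17.6 and 33.0 CPM in LL from 3.92, 2.31 and 2.67 in PP, against 708, 516 and 418 in PL. Ccl3 did not pass the edgeR test in LL (0.37 ± 0.16, adjusted p = 0.0946), although its libraries did not overlap PP, and it was 2.40 higher in PL. In limma with surrogate variables Ccl3 did pass in LL (0.40, adjusted p = 0.00556). The interferon-stimulated list held 32 tested genes, of which 19 were higher and none lower in LL (median 0.89), while 31 were higher in PL (median 2.20). Slfn2, a Schlafen family gene, rose from 32.5, 28.7 and 27.1 to 369, 290.4 and 328 CPM (3.48 ± 0.17), and Gbp5, an interferon-induced GTPase, from 23.1, 21.8 and 28.6 to 125, 118 and 136 CPM (2.38 ± 0.15). Members such as Ifit2 (0.14), Ifit3 (-0.15) and Isg15 (0.45) did not pass the test in LL.

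The receptor side of the response was also displaced. Of 20 genes of LPS recognition and Toll-like receptor signalling 19 were tested, and 10 were higher and 3 lower (median 0.38, against 0.73 in PL). Cd14, the coreceptor that hands LPS to TLR4, was at 357, 358 and 302 CPM in PP and 1042, 832 and 968 in LL (1.48 ± 0.13), and Myd88, the adaptor of most Toll-like receptors, at 98.2, 88.1 and 81.2 and 361, 300.4 and 325 (1.88 ± 0.12). Tlr7, a receptor for single-stranded RNA, rose from 389.8, 399.7 and 492 to 1099, 1059 and 1136 CPM, and Tlr9, a receptor for unmethylated DNA, fell from 201, 198 and 245 to 115, 125 and 109.5 CPM. Irak2, a kinase below MyD88, fell from 158, 154 and 142 to 73.4, 82.3 and 75.7 CPM (-0.97 ± 0.11), and Tlr4 itself did not pass the test (-0.33). Of 27 costimulatory and activation receptors 24 were tested, with 18 higher and 3 lower (median 1.25), and Cd40, which binds the ligand of activated T cells, reached 4.5, 3.23 and 4.07 CPM against 55.2, 36.5 and 33.8 in PL. Clec4n and Clec4d, lectin receptors for microbial sugars, had no read in PP and 30 and 15 counts in LL, at least 15.2-fold and 7.58-fold higher against a floor of 3 counts over the group. In the MHC class II list 0 of 7 tested genes passed the edgeR test, with 1 at an unadjusted p under 0.05, and DESeq2 called 1 and limma with surrogate variables 2 higher. Its most abundant member, Ctss, the protease that prepares class II molecules, was at 5392, 5660.1 and 4096 CPM in PP and 6383, 6252 and 5686 in LL.

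Immediate early genes and glucocorticoid targets had list medians in LL close to those in PL. Of 26 immediate early and phosphatase genes 23 were tested, and 20 were higher and none lower in LL (median 3.05, against 3.30 in PL). Their summed level was still lower in LL, at 5501.1, 4736.7 and 4890.4 CPM, against 7597.5, 5668.9 and 7302.9 in PL and 1460.6, 1266.8 and 1395.8 in PP. Fosl2, an AP-1 subunit, rose from 27.7, 18.2 and 20.96 to 732, 581 and 762 CPM (4.96 ± 0.21), Ier3, an early-response survival gene, from 7.15, 5.45 and 5.91 to 210.2, 152 and 141 CPM (4.78 ± 0.25), and Dusp5, a phosphatase that switches off ERK kinases, from 0.231, 0.641 and 0.191 to 19.0, 16.4 and 21.2 CPM. Jun, Atf3 and Egr3 did not pass the test. Of 22 genes of the glucocorticoid receptor and its targets 18 were tested, and 14 were higher and 1 lower in LL (median 3.09, against 3.11 in PL). Per1, a clock repressor that glucocorticoids induce, was at 45.5, 37.3 and 62.3 CPM in PP and 553, 499.8 and 500.2 in LL (3.44 ± 0.26). Hif3a, a hypoxia-factor subunit, was at 2.08, 1.28 and 0.572 and 46.6, 28.6 and 32.7 (4.69 ± 0.41), and Klf9, a Kruppel-like factor, at 1.61, 2.95 and 2.29 and 30.3, 20.8 and 29.4 (3.48 ± 0.24). The member that fell was Sgk1, a serum- and glucocorticoid-induced kinase, from 376, 393 and 355 to 159.7, 165 and 168 CPM (-1.19 ± 0.12), and the receptor gene Nr3c1 did not pass the test (-0.05). Of 11 tested genes of 20 in the C/EBP and acute-phase list 5 were higher and 1 lower (median 1.19, against 3.80 in PL), led in amount by Cebpb, a factor of acute-phase genes, from 22.9, 15.2 and 9.14 to 239, 224 and 189.7 CPM.

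**Figure D3:**
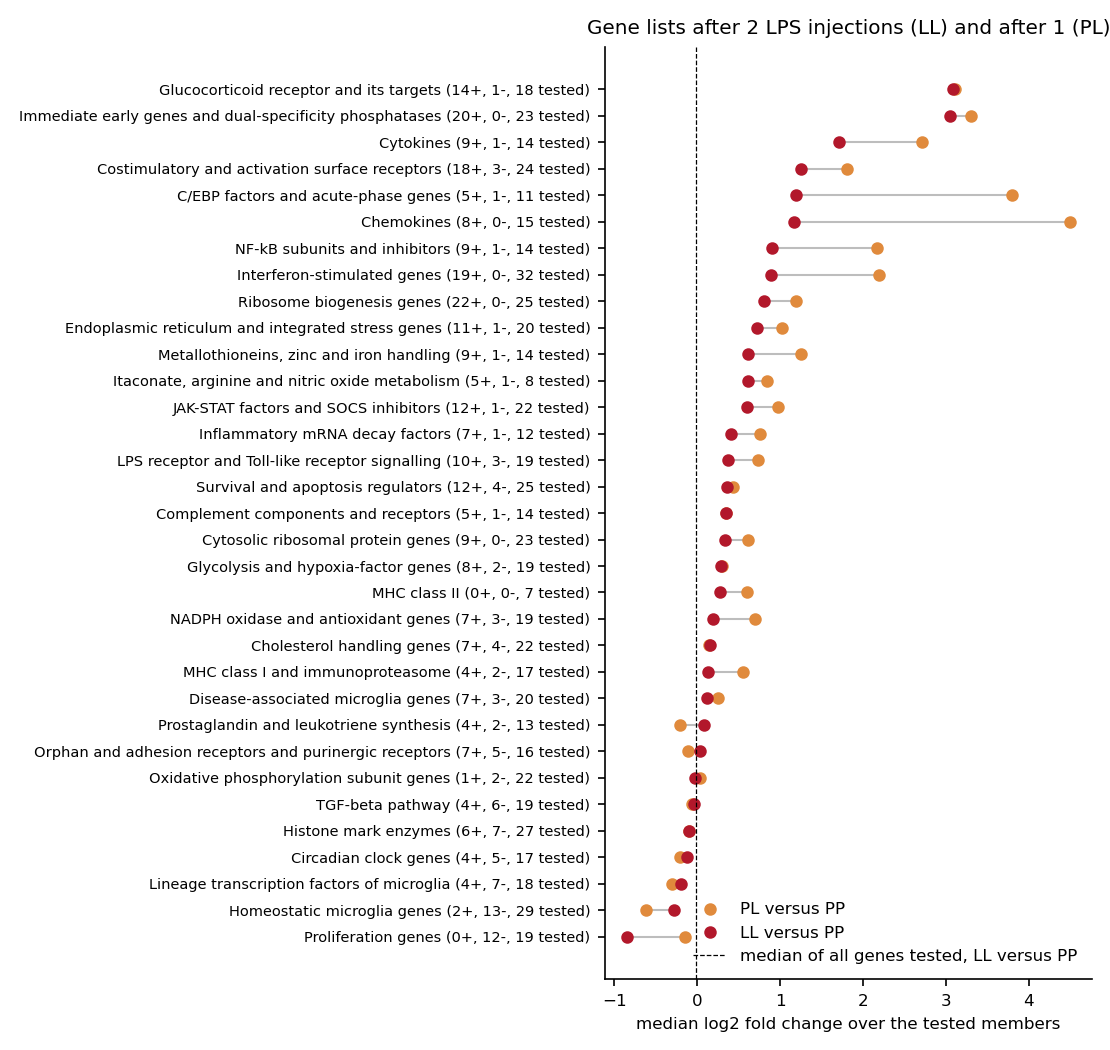
Median log2 fold change against PP (x axis) of the tested members of each of 33 gene lists (y axis) in PL and in LL, with a dashed line at the LL median of all genes tested, -0.01. The LL median lies close to the PL median for glucocorticoid targets (3.09 and 3.11) and immediate early genes (3.05 and 3.30), and nearer to 0 for chemokines (1.16 and 4.50).

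Some genes of cell growth and metabolism were displaced too, and their counts stand beside 17.1% higher and 18.5% lower of all genes tested. Of 25 ribosome biogenesis genes, all tested, 22 were higher and none lower (median 0.81, against 1.197 in PL). Nop58, a core protein of small nucleolar ribonucleoproteins, rose from 24.6, 28.2 and 24.8 to 108, 92.0 and 102 CPM, and Heatr1, which ribosomal RNA transcription needs, from 96.0, 88.8 and 93.7 to 351, 301 and 386 CPM (1.90 ± 0.12). Of 23 ribosomal protein genes 9 were higher and none lower, with a median of 0.34. Of 22 subunit genes of oxidative phosphorylation 1 was higher and 2 were lower (median -0.03), smaller shares than those of all genes. Glycolysis gave 8 higher and 2 lower of 19 tested, led by Slc2a1, the glucose carrier GLUT1, from 51.9, 49.7 and 44.2 to 452, 350.4 and 436 CPM (3.08 ± 0.15), and by Pfkfb3, an activator of phosphofructokinase, from 205, 208 and 218 to 897, 666 and 857 CPM. Of 14 genes of metallothioneins and metal handling 9 were higher and 1 lower. Mt2, a metal-binding protein, rose from 1.15, 1.22 and 0.762 to 55.0, 29.9 and 43.8 CPM (5.26 ± 0.29), and Slc40a1, the iron exporter ferroportin, fell from 246, 239 and 249.8 to 173, 172 and 170.3 CPM. Among histone-mark enzymes 6 were higher and 7 lower of 27 (median -0.10, against -0.01 over all genes). Kdm6b, which removes the repressive H3K27 methyl marks, stood out in size, from 59.5, 52.6 and 63.1 to 939, 699 and 846 CPM (3.83 ± 0.16). Hdac5, a histone deacetylase, fell from 206, 207 and 192 to 80.6, 88.3 and 78.1 CPM (-1.29 ± 0.11).

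Feedback and surface genes of other lists followed. Of 22 tested JAK-STAT genes of 23, 12 were higher and 1 lower, with Pim1, a survival kinase below STAT factors, at 6.23, 4.1 and 6.1 CPM in PP and 196, 181 and 169.6 in LL (5.12 ± 0.24), its exons overlapped by a predicted gene on the opposite strand. Of 12 genes of inflammatory mRNA decay 7 were higher and 1 lower: Zc3h12a, the endonuclease Regnase-1, rose from 21.7, 26.6 and 27.8 to 112, 73.5 and 91.5 CPM, and Zfp36l2, an AU-rich element binding protein, fell from 383, 384 and 394 to 210.3, 195 and 202 CPM. Complement gave 5 higher and 1 lower of 14 tested, and C5ar1, the receptor for the anaphylatoxin C5a, rose from 95.7, 87.4 and 69.7 to 794, 587 and 761 CPM (3.08 ± 0.17). C5ar2, the other C5a receptor, was at 122, 105 and 124 CPM in PP, 161, 169 and 196 in PL and 228, 239 and 228 in LL, and so lay above PL too (0.40, adjusted p = 0.0384). Of 17 MHC class I and immunoproteasome genes 4 were higher and 2 lower. H2-Q4, a non-classical class I gene, was at 41.0, 40.6 and 43.2 CPM in PP, 242, 207 and 179 in PL and 77.9, 67.8 and 83.8 in LL, but class I genes are near-identical copies and their counts are uncertain. Psmb9, an immunoproteasome subunit, fell from 60.3, 53.1 and 57.5 to 28.1, 33.1 and 31.6 CPM (-0.88 ± 0.11), and exons of it overlap Tap1.

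Lists of lipid mediators, sterols and clock genes held members that moved in both directions. Of all genes tested, 17.1% were higher and 18.5% lower. Of 13 tested genes of prostaglandin and leukotriene synthesis 4 were higher and 2 lower: Ptger4, the prostaglandin receptor EP4, rose from 1.39, 1.67 and 2.29 to 50.4, 45.2 and 55.5 CPM (4.87 ± 0.20), and Hpgd, the enzyme that breaks prostaglandins down, fell from 328, 347 and 294 to 97.1, 135 and 101 CPM (-1.54 ± 0.20). Of 22 cholesterol genes 7 were higher and 4 lower, and Abcg1, a sterol exporter, fell from 186, 208 and 174 to 107, 120.3 and 105 CPM. The clock list gave 4 higher and 5 lower of 17, and 3 lower without the first or the third LL library. Nfil3, a repressor of clock output, rose from 8.19, 7.5 and 6.1 to 99.2, 61.5 and 81.3 CPM (3.45 ± 0.18), and Dbp, an activator of the same sites, fell from 11.5, 13.2 and 12.2 to 4.14, 6.75 and 3.16 CPM (-1.37 ± 0.25).

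Stress and survival genes rose more often than they fell. Of 20 genes of endoplasmic reticulum and integrated stress 11 were higher and 1 lower, with Chac1, a glutathione-degrading enzyme of that response, at 0.231, 0.577 and 0.191 CPM in PP and 9.98, 5.43 and 7.68 in LL. Survival and apoptosis gave 12 higher and 4 lower of 25. Casp4, the caspase that senses LPS inside the cell, rose from 16.1, 21.7 and 24.6 to 97.1, 80.5 and 104 CPM (2.18 ± 0.15), and Bid, which carries death signals to mitochondria, fell from 82.4, 83.2 and 69.3 to 38.8, 37.99 and 35.2 CPM (-1.07 ± 0.12). Fas, a death receptor, reached 3.53, 3.52 and 4.07 CPM in LL against 28.4, 25.1 and 19.9 in PL and 0.577, 0.833 and 1.14 in PP. Among 16 tested orphan, adhesion and purinergic receptors 7 were higher and 5 lower, led by P2ry2, a receptor for ATP and UTP, from 0.346, 0.962 and 1.33 to 32.4, 16.6 and 27.3 CPM. Of 20 tested genes of disease-associated microglia 7 were higher and 3 lower: Spp1 and Fabp5, a fatty acid carrier, rose (2.96 ± 0.26 for Fabp5), Lpl, which frees fatty acids from lipoproteins, fell (-1.06 ± 0.17), and Axl did not pass the test (0.17 ± 0.17, adjusted p = 0.476). Clec7a, the glucan receptor dectin-1, was at 27.8, 30.0 and 20.2 CPM in PP and 14.6, 15.7 and 18.1 in LL (-0.72 ± 0.27, adjusted p = 0.0476), a call lost in 8 of 17 settings. The lists of NADPH oxidase and antioxidant genes (7 higher and 3 lower of 19), TGF-beta genes (4 and 6 of 19) and itaconate, arginine and nitric oxide metabolism (5 and 1 of 8) were also mixed.

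The homeostatic programme was lowered in part. Of 29 homeostatic genes, all tested, 2 were higher, 13 lower and 14 not past the test (median -0.28), against 21 lower in PL (median -0.61). Without the first or the third LL library, 8 and 7 were lower. Cx3cr1, the fractalkine receptor, fell from 6902, 6723 and 6443 to 3359.5, 3953 and 3413 CPM (-0.90 ± 0.13), and P2ry12, the ADP receptor that guides microglial processes, from 4224, 4380.4 and 3995 to 1996, 2537 and 1963 CPM (-0.96 ± 0.16). Both lay above PL (by 0.60, adjusted p = 0.0122, and 0.65, adjusted p = 0.0211), and exons of each overlap another gene on the opposite strand. Csf1r (-0.04), Cst3 (-0.05) and Sparc (-0.09), also typical of microglia, did not pass the test. The 2 that rose are receptors known to increase in activation, Gpr84 (1.92 ± 0.20) and P2ry6 (1.27 ± 0.13). Among 18 lineage transcription factors 4 were higher and 7 lower. Runx1 rose from 126, 116 and 129.6 to 1059, 802 and 1031 CPM (2.96 ± 0.13), and Maf fell from 637.7, 568 and 613 to 145, 219.4 and 150.4 CPM (-1.82 ± 0.17).

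The next question was which genes differed from the naive state in LL and not after a single LPS injection. PL was compared with the same PP libraries as LL, so the 2 comparisons share them and their fold changes are given only side by side. Of the called genes, 33 higher (3.93% of those called higher) and 80 lower (11.6% of those called lower) were not called in PL. Most of these were changed in PL as well, by less: their median log2 fold change was 1.12 in LL and 0.92 in PL for the higher genes, and -1.21 and -0.82 for the lower. Under the stricter condition of an adjusted p of 0.05 or more in PL, 3 genes were higher and 16 lower. Asking also that LL differ from PL in the same direction (adjusted p under 0.05, which 3.65% of all genes passed as higher in LL and 4.77% as lower) left 1 higher gene, Efnb2, and 5 lower genes, Mki67, Top2a, Pbk, Thbs1 and Rpp21. These counts rest on few libraries: the 113 genes became 72, 62 and 215 without the first LL, the third LL and the first PL library, the 19 became 63 without the first PL library and 9 to 12 without the first PP, the second PP or any LL library, and the 6 became 2 and 0 without the first and the second LL library.

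Efnb2, the ligand ephrin-B2 that also signals into the cell that carries it (chromosome 8, 8617434 to 8661242, minus strand), was at 5.08, 5.06 and 4.0 CPM in PP, 5.13, 5.08 and 4.6 in LP, 4.15, 5.8 and 7.73 in PL and 9.01, 16.0 and 8.81 in LL. The log2 fold change was 1.24 ± 0.26, adjusted p = 0.00176 in LL and 0.27 ± 0.27, adjusted p = 0.415 in PL, and LL differed from PL by 0.97, adjusted p = 0.0309. All LL libraries lay above all others, and the second LL library was the highest. Without that library Efnb2 was no longer called against PP and the difference from PL no longer passed the test. That difference was also lost without the first or the second PL library, with only the compared groups in the model, and in limma without surrogate variables.

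Mki67, the proliferation marker Ki-67, and Top2a, the DNA topoisomerase of dividing cells (chromosome 11, 98992943 to 99024189, minus strand), were the lower genes that met the conditions in most settings. Mki67 was at 9.23, 5.64 and 9.14 CPM in PP, 9.98, 5.39 and 6.58 in PL and 1.34, 2.79 and 4.07 in LL (log2 fold change -1.61 ± 0.35, adjusted p = 0.00267 in LL, -0.07 ± 0.30, adjusted p = 0.854 in PL). Top2a was at 5.19, 3.46 and 5.14 CPM in PP, 5.38, 3.51 and 4.72 in PL and 0.852, 1.47 and 1.58 in LL (-1.83 ± 0.40, adjusted p = 0.00238 in LL, 0.03 ± 0.32, adjusted p = 0.949 in PL). Both were also low where LPS had been given 4 weeks before and PBS last: LP had 2.25, 2.88 and 3.4 CPM of Mki67 and 0.962, 2.76 and 3.6 CPM of Top2a. LL and LP did not differ past the test for either (log2 difference -0.15, adjusted p = 0.816, and -0.96, adjusted p = 0.103), and LP did not differ from PP past the test (-1.46, adjusted p = 0.618, and -0.87, adjusted p = 0.962). The 3 conditions held for Mki67 in 13 and for Top2a in 14 of 17 alternative settings. Both lost them without the first LL, the second LL or the first PP library, and Mki67 also without the first PL library. Pbk, a mitotic kinase, reached at most 1.77 CPM in PP and PL, and Kif11, a spindle motor, met the first 2 conditions but not the difference from PL.

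Other division genes were read from the list. Of 24 proliferation genes 19 were tested, and 0 were higher and 12 lower in LL (median -0.84), with 0 higher also at an unadjusted p under 0.05, in DESeq2 and in limma, while 2 were higher and 6 lower in PL (median -0.15). The median in LP was -0.56, with 0 genes past the test and 6 at an unadjusted p under 0.05. Replication genes such as Mcm2 (-1.05), which opens DNA for copying, were among the 12. So were mitotic genes such as Kif11 (-2.34) and Tpx2 (-1.87), and the transcription factor gene E2f1 (-1.98). Tpx2 did not pass in limma with or without surrogate variables (adjusted p = 0.0677 and 0.0639). Of the other list members, Pcna (0.22) and Cdk1 (0.11) did not pass the edgeR test. Without the first LL, the third LL or the first PP library, 7, 6 and 6 were lower. Mcm3 and Pcna were the most abundant of the list, at means of 57.6 and 45.5 CPM in PP, and Mcm3 fell by 0.34 on the log2 scale. The mitotic genes were low: Mki67 and Top2a had means of 8.01 and 4.599 CPM in PP, and Tpx2 was at 2.08, 1.09 and 2.29 CPM in PP and 0.73, 0.293 and 0.226 in LL.

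Thbs1, the matrix protein thrombospondin 1, was at 15.3, 14.6 and 14.1 CPM in PP and 7.06, 7.19 and 7.68 in LL (log2 fold change -1.01 ± 0.21, adjusted p = 0.00172), with 10.8, 8.9 and 17.5 in PL. Rpp21, a subunit of ribonuclease P, was at 9.46, 7.76 and 7.43 CPM in PP, 6.53, 9.04 and 7.59 in PL and 4.99, 3.81 and 3.16 in LL (-1.01 ± 0.24, adjusted p = 0.00529). Thbs1 kept all 3 conditions in 7, Rpp21 in 6 and Pbk in 5 of 17 settings. Exons of Thbs1 overlap a predicted gene on the opposite strand.

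A wider set was described after the values had been seen: genes called in LL that also differed from PL in the direction of the LL change, whatever PL had done. It held 5 higher and 17 lower genes, and 9 to 14 without the second LL, the third LL, the first LL or the second PL library. Of these, Lifr, Tsc22d3, Ptafr, Orai2, Ager, Arl5c and Il4i1 met the conditions in all 17 settings. Lifr, the receptor chain for leukaemia inhibitory factor (chromosome 15, 7090614 to 7197489, plus strand), was at 102, 94.7 and 133 CPM in PP, 114, 98.6 and 98.4 in LP, 146, 131 and 177 in PL and 234, 258 and 263 in LL. On the log2 scale it changed by 1.203 ± 0.14, adjusted p = 1.1e-05 in LL and 0.47 ± 0.14, adjusted p = 0.0105 in PL. Tsc22d3, the glucocorticoid-induced leucine zipper that restrains NF-kB and AP-1 (chromosome X, 140539528 to 140600659, minus strand), was at 45.1, 39.5 and 42.3 CPM in PP, 81.4, 111 and 126 in PL and 187, 171.2 and 154 in LL. Its log2 fold change was 2.02 ± 0.14, adjusted p = 7.5e-08 in LL and 1.32 ± 0.14, adjusted p = 2.3e-06 in PL, and LL exceeded PL by 0.69, adjusted p = 0.00603. B3galt5, a galactosyltransferase of glycolipids, was also among the higher genes, with a log2 fold change of 1.06 ± 0.10 in LL and 0.59 in PL.

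Receptors and signalling genes were among the lower genes of this set. Ptafr, the receptor for platelet-activating factor (chromosome 4, 132564067 to 132582683, plus strand), was at 255, 254 and 239 CPM in PP, 282, 273 and 293 in LP, 169.7, 122 and 161 in PL and 75.2, 94.6 and 70.9 in LL. It changed by -1.63 ± 0.13, adjusted p = 3.5e-07 in LL and -0.72 ± 0.13, adjusted p = 2.8e-04 in PL. Orai2, a subunit of store-operated calcium channels (chromosome 5, 136147459 to 136170713, minus strand), was at 104, 108 and 115 CPM in PP, 70.7, 72.8 and 73.4 in PL and 41.1, 43.4 and 37.5 in LL (-1.42 ± 0.09, adjusted p = 2.5e-08 in LL, -0.59 ± 0.09, adjusted p = 4.3e-05 in PL). For both, the groups formed 3 steps without overlap, with LL the lowest. Ager, the receptor for advanced glycation end products, was at 5.88, 6.54 and 7.05 CPM in PP, 3.35, 4.45 and 3.29 in PL and 1.58, 1.76 and 1.35 in LL (-2.02 ± 0.23, adjusted p = 9.5e-06). Bbc3, the cell death activator PUMA, fell by 1.30 ± 0.17 on the log2 scale in LL, with -0.64 ± 0.16, adjusted p = 0.00323 in PL.

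For 2 of the genes called in LL, the directions in LL and PL were opposite, each past the test, as they were for Nfkbie, whose fall was short of a call. Il4i1, a secreted amino acid oxidase of myeloid cells (chromosome 7, 44816387 to 44840809, plus strand), was at 11.5, 9.1 and 7.62 CPM in PP, 8.66, 8.4 and 10.2 in LP, 25.7, 30.6 and 25.9 in PL and 4.14, 4.84 and 2.48 in LL. Its log2 fold change was 1.52 ± 0.18, adjusted p = 5.3e-06 in PL and -1.26 ± 0.22, adjusted p = 4.2e-04 in LL. Arl5c, a small GTPase of the ARF family (chromosome 11, 97989578 to 97996181, minus strand), was at 17.8, 20.1 and 13.7 CPM in PP, 20.1, 22.3 and 22.4 in LP, 30.5, 25.1 and 28.4 in PL and 4.87, 6.6 and 8.36 in LL. Its log2 fold change was 0.68 ± 0.16, adjusted p = 0.00268 in PL and -1.45 ± 0.19, adjusted p = 4.1e-05 in LL. Both genes lay above the naive range after 1 injection and below it after both, with no overlap between any of the groups PP, PL and LL. Exons of Il4i1 overlap Atf5 and Tbc1d17 on the opposite strand and Nup62 on the same strand, so part of its counts may belong to them.

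**Figure D4:**
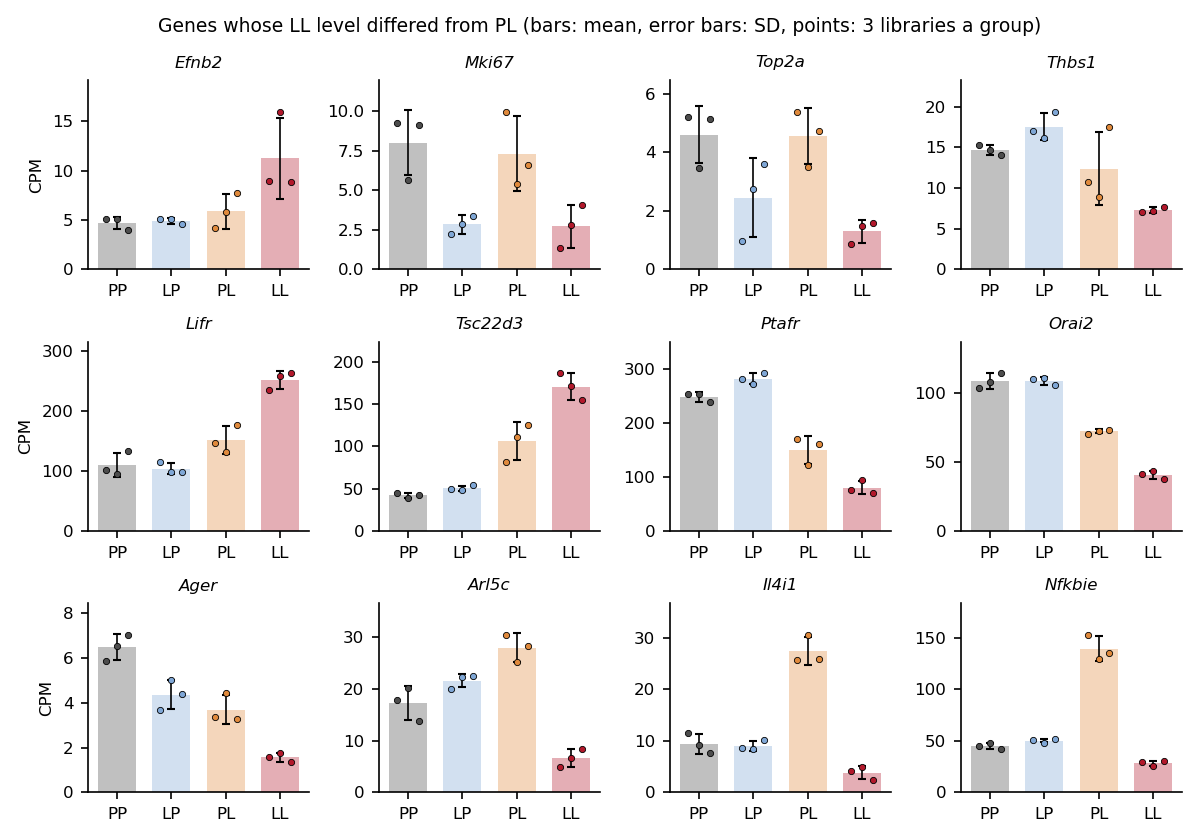
Level in CPM (y axes, linear from 0) of 12 genes whose LL level was compared with PL: bars are means of 3 libraries, error bars 1 SD and points the libraries, for PP, LP, PL and LL. Efnb2, Lifr and Tsc22d3 are highest in LL, Mki67 and Top2a are low in LP and LL, and Arl5c, Il4i1 and Nfkbie are above PP in PL and below PP in LL.

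Changes after a single LPS injection were also read in other mice of the series, control littermates of a DNA repair model on a mixed FVB/C57BL/6J background, with genotypes Ercc1 wt/delta, wt/ko or wt/wt, 3 h after 1 mg/kg LPS (WT-LPS) or PBS (WT-PBS), 3 libraries each. These libraries share none with LL or PP and were normalised in a table of their own, so only changes within them were used. One WT-PBS library stood apart from the other libraries of its group. It had 109 CPM of Zbtb16 where the other WT-PBS libraries had 0.458 and 0.352 CPM and WT-LPS had 92.0, 38.9 and 51.3 CPM, and 920 CPM of Fkbp5 where the others had 91.2 and 70.1 CPM. Values are therefore given over all libraries and without this one, the outlying library.

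Of 763 genes called higher in LL and tested there, 388 were called higher in WT-LPS (50.9%), and 497 of 768 (64.7%) without the outlying library. The shares of all genes tested in both were 4.56% and 5.55%. Of the genes called lower in LL and tested there, 140 were called lower in WT-LPS (21.8%), and 28.5% of 646 without the outlying library, against 1.72% and 2.09% of all genes. Without one WT-LPS library the lower share was 13.3%. No gene called in LL was called in the other direction in either case. Over all libraries of that model, 4.04% of 17460 genes were called higher and 1.49% lower. Of 17 genes of the glucocorticoid receptor and its targets tested in both, 6 were called higher with all libraries and 14 without the outlying library. At an adjusted p under 0.05, 1 and 2 of them were lower. The outlying library was marked by members of this list, Zbtb16 and Fkbp5. The change in this count therefore follows from leaving that library out and is not a separate result. Zbtb16 changed by 0.72 with it and 7.21 without it on the log2 scale, and Klf9 by 0.72 and 4.00.

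The genes that stood out in LL against PL behaved variously in these mice. Efnb2 was called higher in WT-LPS, by 2.01 with all libraries and 1.74 without the outlying library, so a single injection did raise it there. B3galt5 was also called higher, by 1.395 and 1.18. Tsc22d3 changed by -0.18 (adjusted p = 0.9) with all libraries and by 1.69 (adjusted p = 5.2e-04) without the outlying library, and Lifr by -0.08 and 0.82 (adjusted p = 0.0223). Of the 5 lower genes Mki67, Top2a, Pbk, Thbs1 and Rpp21, none was called lower with or without the outlying library, and Mki67 changed by 0.63 and 0.18 and Top2a by 0.95 and 0.43, without passing the test. Thbs1 did fall in these mice, by 0.94 (adjusted p = 0.00158) and 0.82 (adjusted p = 0.00281) on the log2 scale, short of the limit of 1 for a call. Il4i1 changed by 1.34 and 1.15 and Arl5c by 0.46 and 0.85. Of 30 tested genes called higher in LL and not in PL, 4 (13.3%) were called higher with all libraries and 9 (30.0%) without the outlying library. The shares of all genes were 4.56% and 5.55%. Of the lower genes 3 of 71 (4.23%) and 2 of 72 (2.78%) were called lower, against 1.72% and 2.09% of all genes, so the second share was near that of all genes. At an adjusted p under 0.05 with all libraries, 13 of the 30 (43.3%) were higher, against 11.6% of all genes tested in both. Of the 71, 19 (26.8%) were lower, against 10.7%. Without the outlying library these were 17 of 30 and 18 of 72, against 2081 higher and 1735 lower of 14794 genes tested in both.

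Chromatin at gene starts was read from peaks that the authors called for ATAC-seq (open chromatin), H3K27ac (active promoters and enhancers) and H3K4me3 (promoters), each from 1 library a group, of 2 pooled mice for ATAC-seq and 5 for the histone marks. With 1 library a group there is no replicate check. The intervals below are exact 95% binomial intervals over genes, which take genes as independent. They hold no error between mice or libraries and none of peak calling. Of the 839 genes called higher, 54 (6.44%, 4.87% to 8.31%) had an ATAC-seq peak within 1000 bp of their start in LL and none in PP, against 1.77% of 16087 genes. For H3K27ac there were 29 (3.46%, 2.33% to 4.93%), against 0.932%, and for H3K4me3 22 (2.62%, 1.65% to 3.94%), against 0.696%. The higher genes had a peak in PP about as often as all genes tested: 71.5% and 71.5% for ATAC-seq, 73.2% and 73.6% for H3K27ac and 73.3% and 76.2% for H3K4me3. After 1 injection they had a peak about as often as after both. For PL and LL the shares were 77.7% and 77.5% (ATAC-seq), 74.6% and 76.0% (H3K27ac) and 74.4% and 75.7% (H3K4me3). In LP they were 72.8%, 74.5% and 74.5%. Of the 686 lower genes with coordinates, 15 (2.19%, 1.23% to 3.58%) had an ATAC-seq peak in PP and none in LL, against 0.845%, for H3K27ac 10 (1.46%, 0.701% to 2.66%), against 1.09%, and for H3K4me3 3 (0.437%, 0.0903% to 1.27%), against 0.435%. The opposite, a peak in LL and none in PP, held for 11 (1.6%), 7 (1.02%) and 7 (1.02%) of the lower genes. Of the higher genes, 4, 5 and 2 had a peak in PP and none in LL.

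Trem1 had ATAC-seq and H3K27ac peaks at its start in PL and LL and none in PP or LP, and an H3K4me3 peak in PL alone. Plet1 and Lrg1 had an ATAC-seq peak in PL and LL and none in PP or LP, with no histone peak in any group. Il1b had an ATAC-seq peak in PL and LL alone, while H3K27ac was called there in all groups. Cbfa2t3, which fell, had an ATAC-seq peak in PP, LP and PL and none in LL. Ptgs2, Cd300lf, Socs3, Efnb2, Top2a, Mki67 and Sall1 had peaks of all 3 kinds in all groups, so their changes in RNA came without a change in the calling of a promoter peak. Of the 22 genes that differed from PL in the direction of the LL change, none of the 5 higher had an ATAC-seq peak in LL alone of LL and PP, and of the 17 lower 1 had one in PP alone and 1 in LL alone.

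**Figure D5:**
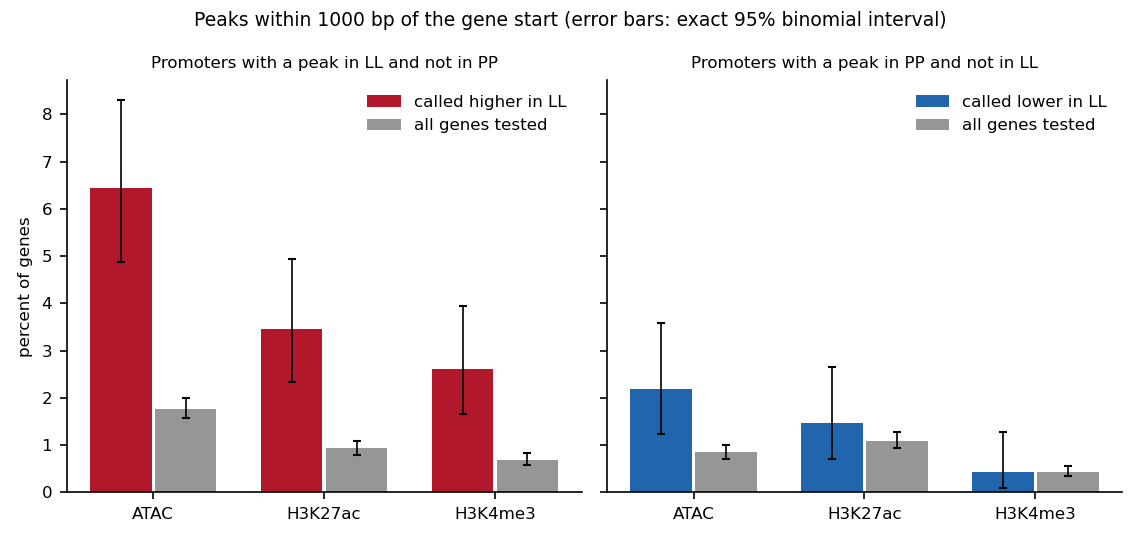
Share of genes (y axis, percent) with a promoter peak in LL and not in PP, for genes called higher and all genes tested, and in PP and not in LL, for genes called lower and all genes tested, for ATAC-seq, H3K27ac and H3K4me3, each from 1 library a group. Bars start at 0 and error bars are exact 95% binomial intervals over genes, which take genes as independent and hold no error between mice or libraries. The share for genes called higher is above that of all genes for each assay, for example 6.44% against 1.77% for ATAC-seq.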

How the data were processed

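RNA-seq of sorted microglia was analysed from the count table of the recurrent LPS experiment (12 libraries, 3 each of PP, LP, PL and LL) and, for a single LPS injection in other mice, from 6 libraries of a second table. The deposited values are expected counts per gene, not normalised: per the methods, the authors trimmed reads with bbduk, aligned them with STAR 2.7.3a to GRCm38 (Ensembl release 82) and counted them with featureCounts 2.0.0. Some counts are fractional, and rounding them to integers left at least 99.99% of every library total. How shared reads were split is not given in the sources used here. Labels and methods name different library kits for these RNA libraries, so the use of strand is not known. The deposited peak files hold a score, a signal and a -log10 p for each peak of 1 pooled library a group, and for ATAC-seq the authors used Bowtie2 2.3.5.1 and Genrich 0.5 at p 0.01. Only peak positions were used in the main counts. An alternative took equal numbers of peaks, ranked by the signal for ATAC-seq and by the -log10 p for the histone marks.

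Counts were scaled by TMM, filtered with filterByExpr and tested in edgeR 4.0.16 (R 4.3.3) by the quasi-likelihood test with group means over all 12 libraries and Benjamini-Hochberg adjustment over all genes tested. A gene was called where the adjusted p was below 0.01 and its log2 fold change beyond 1 in size, and a list member was counted below 0.05. The script was tested on simulated data. CPM were computed on TMM-scaled library sizes. Alternatives were DESeq2 1.42.0, limma 3.58.1 with and without sva 3.50.0 (2 surrogate variables), RLE scaling, other filters, the compared groups alone, a replicate block and leaving out each library. Each mouse gave 1 library, so the spread is that between mice.

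The members and lists were chosen with earlier results of these data known, and a few genes are not reported here. The text names genes with a symbol, a mean of at least 5 CPM in the higher group and no overlap of LL and PP: the 12 called genes per direction with the largest change, those called in LL, not past 0.05 in PL and different from PL, the 6 per direction with the largest CPM difference, up to 4 members per list and direction without the CPM and overlap conditions, and 9 genes named in the study. Lifr, Tsc22d3, Orai2, Ager, Arl5c, Il4i1, B3galt5, Pbk and other list members were chosen after their values were seen. Gene coordinates are GENCODE M21 on GRCm38, and promoter sequences are RefSeq on GRCm38.p6, where the Trem1 start lies 29 bases from the GENCODE start and the other 5 coincide. Peaks were assigned within 1000 bp of a gene's start.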

Additional observations from a re-analysis of the deposited data

Results flagged for a closer look

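For 5 of the 116 genes that were called in LL and not called in PL, or that differed from PL, the effect of the last LPS injection differed with what had been injected first. The value is the effect after a first LPS injection (LL over LP) minus the effect after a first PBS injection (PL over PP) on the log2 scale, in an edgeR interaction test that 316 of all genes tested passed at an adjusted p under 0.05. The 116 genes were chosen by the same LL, PL and PP libraries, so the interaction is not independent support for their difference. For Il4i1 the difference was -2.70 (adjusted p = 2.8e-04), with an effect of -1.18 after LPS and 1.52 after PBS. Arl5c gave -2.43 (adjusted p = 2.8e-04), with -1.75 after LPS and 0.68 after PBS. In both genes all 3 LL libraries lay below all 3 LP libraries, while all 3 PL libraries lay above all 3 PP libraries. For Ptafr the difference was -1.09 (adjusted p = 0.00649; -1.81 and -0.73), and Orai2 gave -0.83 (adjusted p = 0.00252; -1.42 and -0.59), so that both genes fell further when LPS had been given before. Lifr was the gene with a larger rise after a first LPS injection, with a difference of 0.81 (adjusted p = 0.0471; 1.28 and 0.47).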

How the results depend on the processing

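Of 218 named genes, 197 kept their direction and their side of the threshold in every setting, 21 changed a call in at least 1 setting and none reversed. The counts of called genes moved by less than 1.5 times in each setting that kept all libraries: 853 higher and 640 lower in DESeq2, 864 and 655 with RLE scaling, 887 and 723 in limma with sva. The counts of genes changed in LL and not in PL moved more. The 113 genes not called in PL became 178 in limma without sva, and the 19 with an adjusted p of 0.05 or more in PL became 33 with the compared groups only, 36 in limma with sva, 49 in limma without sva and 34 with no filter on low counts. The 6 genes that also differed from PL became 12, and the 22 of the wider set 37, in limma with sva. Leaving out 1 library at a time gave 756 to 876 genes higher and 428 to 679 lower in LL, and 251 to 285 higher and 68 to 97 lower list members. It gave 62 to 215, 9 to 63 and 0 to 7 genes for the 3 sets and 9 to 27 for the wider set, and 39.6 to 64.7% of the higher and 13.3 to 28.5% of the lower genes called alike after the single LPS injection in other mice. The causes were not tested. With a replicate block the counts were 822 higher and 645 lower, 98, 14, 7 and 21 for the sets, and 273 and 89 list members against 269 and 93. The deviations of same-numbered libraries correlated above 0.1 in 7 of 18 pairs (-0.409 to 0.414). Between LL and PP the correlations were 0.414, -0.065 and 0.196. No pairing was used in the main test, and with 3 libraries a group this check cannot settle whether the numbers pair mice. Library depth limits genes with 3 or fewer counts in PP, whose folds are given with counting intervals or as lower bounds.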

Other observations

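Some of the strongest falls were in loci without a gene name, which the naming rule left out and which were picked here after their values were seen. A530010L16Rik changed by -4.29 on the log2 scale between LL and PP. Gm33858, whose exons overlap Cx3cr1 on the opposite strand, was at a mean of 76.7 CPM in PP and 5.43 CPM in LL (log2 fold change -3.78), a far larger change than that of Cx3cr1 itself (-0.90).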
